A study of Mus musculus with 4 samples.

Results

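The small proline-rich genes of the Sprr1 and Sprr2 families were examined in mouse embryonic skin at E16.5, where E stands for embryonic day, with and without overexpression of Ovol2. The 10 genes were chosen by symbol (Sprr1a, Sprr1b, Sprr2b, Sprr2d, Sprr2e, Sprr2f, Sprr2g, Sprr2h, Sprr2i and Sprr2k), out of 19938 genes with a probe set of their own. Each of the 10 had 1 probe set annotated to it alone, and all 10 passed the filter on dim genes. Every control value of the 10 also lay above the filter's log2 level of 7.32, the lowest being 7.37, so no gene passed through the Ovol2 BT arrays alone.

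There were 2 Ovol2 BT arrays and 2 control arrays, each of skin RNA pooled from 2 mice. Ovol2 BT embryos carried TRE-Ovol2-Flag, a tetracycline-responsive Ovol2 transgene, together with K5-tTA, a transactivator under the keratin 5 promoter, which is active in basal keratinocytes. Controls carried TRE-Ovol2-Flag alone or were wild type, so a control with K5-tTA alone was not among the samples. The labels give the strain as FVB/N for Ovol2 BT and CB6F1 for controls, and call the mice littermates; strain and transgene cannot be told apart here. All 4 arrays are labelled female, but the summed intensity of 3 Y-linked genes was 2724 on Ovol2 BT replicate 1 and 25.1 on its replicate 2, against 2336 and 118 on control replicates 1 and 2. The Y-linked signal followed the replicate number, not the genotype. Ovol2 itself, the check of the labels, measured 12.93 and 12.96 in Ovol2 BT skin and 7.59 and 8.29 in control skin. That is a log2 fold of 5.01 with an SE of 0.27 and a limma adjusted p of 0.0253.

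Sprr proteins are precursors of the cornified envelope, the protein shell that replaces the plasma membrane of a dying keratinocyte. Transglutaminases join their glutamine and lysine residues to loricrin and other envelope proteins, and Sprr proteins serve as cross-bridges between these. The genes lie together in the epidermal differentiation complex, are active in suprabasal layers and periderm, and are known for rising in wounded, inflamed or oxidatively stressed skin. Ovol2 encodes a zinc finger protein that regulates transcription in epithelial cells. E16.5 was chosen, per the submitters' design note, to catch primary changes while the skin still differed little in form.

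The promoters of the Sprr2 genes share a common layout, which is shown here so that the values of each gene can be read beside its promoter. RefSeq (GRCm38.p6) gave a window of 300 bases around the annotated start for 9 of the 10 genes; Sprr2g had none. Printed below are bases -200 to -20 relative to that start, read along the gene, with base -1 just before it. Capitals mark TGAGTCA (or TGACTCA on the other strand), the site of the AP-1 factors, then ATTTGCAT, the octamer site of POU factors, and TATAAA, the TATA box.
Sprr2b: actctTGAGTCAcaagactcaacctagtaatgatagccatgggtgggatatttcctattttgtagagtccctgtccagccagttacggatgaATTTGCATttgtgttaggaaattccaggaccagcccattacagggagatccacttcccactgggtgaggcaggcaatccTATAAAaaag
Sprr2d: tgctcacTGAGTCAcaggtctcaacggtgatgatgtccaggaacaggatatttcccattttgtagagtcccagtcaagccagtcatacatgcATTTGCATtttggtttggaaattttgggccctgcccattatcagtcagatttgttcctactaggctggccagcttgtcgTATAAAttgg
Sprr2e: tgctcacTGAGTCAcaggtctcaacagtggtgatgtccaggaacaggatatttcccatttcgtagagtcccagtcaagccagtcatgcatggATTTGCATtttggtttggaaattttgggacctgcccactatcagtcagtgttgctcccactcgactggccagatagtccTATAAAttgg
Sprr2f: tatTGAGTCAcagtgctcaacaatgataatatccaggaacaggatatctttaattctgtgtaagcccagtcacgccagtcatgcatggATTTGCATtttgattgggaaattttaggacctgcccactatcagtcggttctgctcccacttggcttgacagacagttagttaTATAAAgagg
Sprr2h: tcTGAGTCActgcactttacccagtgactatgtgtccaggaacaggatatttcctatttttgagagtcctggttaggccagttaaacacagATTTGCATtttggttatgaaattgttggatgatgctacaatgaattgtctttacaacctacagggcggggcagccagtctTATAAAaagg
Sprr2i: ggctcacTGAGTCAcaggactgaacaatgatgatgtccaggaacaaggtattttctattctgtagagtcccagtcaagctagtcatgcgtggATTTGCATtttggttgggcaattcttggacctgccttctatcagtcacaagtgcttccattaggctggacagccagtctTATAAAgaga
Sprr2k: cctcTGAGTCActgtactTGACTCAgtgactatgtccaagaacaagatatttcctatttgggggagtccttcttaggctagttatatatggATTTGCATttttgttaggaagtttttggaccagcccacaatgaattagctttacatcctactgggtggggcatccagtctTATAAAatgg
Sprr1b: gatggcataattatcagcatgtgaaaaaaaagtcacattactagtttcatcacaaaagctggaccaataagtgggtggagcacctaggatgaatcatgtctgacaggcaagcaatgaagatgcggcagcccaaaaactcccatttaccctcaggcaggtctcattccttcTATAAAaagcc
Sprr1a: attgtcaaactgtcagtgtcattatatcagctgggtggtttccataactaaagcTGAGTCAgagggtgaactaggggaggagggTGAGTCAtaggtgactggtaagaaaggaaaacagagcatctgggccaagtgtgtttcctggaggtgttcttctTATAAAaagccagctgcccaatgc
On the plus strand these are chr3:92316505-92316685 for Sprr2b, chr3:92338940-92339120 for Sprr2d, chr3:92351943-92352123 for Sprr2e, chr3:92364987-92365167 for Sprr2f, chr3:92385485-92385665 for Sprr2h, chr3:92407791-92407971 for Sprr2i and chr3:92432382-92432562 for Sprr2k. On the minus strand they are chr3:92438799-92438979 for Sprr1b and chr3:92485901-92486081 for Sprr1a.

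All 7 Sprr2 windows held the AP-1 site, the octamer and the TATA box. The AP-1 site began between base -198 (Sprr2h) and base -193 (Sprr2d, Sprr2e and Sprr2i), the octamer between -112 (Sprr2f) and -108, and the TATA box at -29 in each. The first bases of AP-1 site and octamer were 85 to 89 bases apart. Sprr2k had a second AP-1 site in the other orientation at -182. Sprr1a had 2 AP-1 sites, at -146 and -116, and a TATA box at -43, with no octamer match, and Sprr1b had the TATA box alone, at -30. On both strands, the AP-1 site was found in 5.20% of all 32851 windows of this length, the octamer in 1.74% and the TATA box in 13.6%. CCGTTA, the core of the site that Ovo family proteins bind, was in 0 of the 9 windows and in 2.76% of all windows. That says only that these letters are not in these windows. TGACNNNGC, the core of the antioxidant response element bound by Nrf2, matched in Sprr2f at -137 and in Sprr1a at -148, where it overlaps the AP-1 site; 12.4% of all windows held it.

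**Figure D1:**
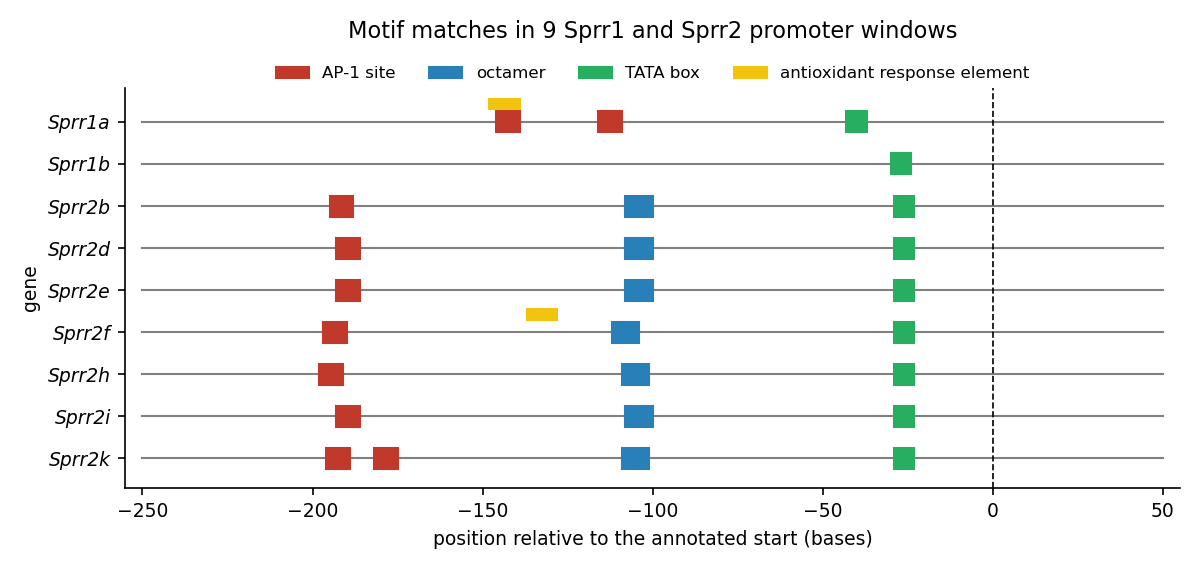
Positions of motif matches (coloured boxes, either strand) in the promoter windows of 9 genes, in bases from the annotated start (dashed line). The 7 Sprr2 windows share an AP-1 site near -195, an octamer near -109 and a TATA box at -29; Sprr1a and Sprr1b lack the octamer.

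Over the 250 bases before the start, aligned pairs of Sprr2 promoters were between 61.6% and 89.2% identical, with a median of 67.6% over 21 pairs. The closest pair was Sprr2d and Sprr2e (89.2%), and the next was Sprr2h and Sprr2k (81.2%). Sprr1a and Sprr1b were 56.8% identical to each other. Pairs of a Sprr1 and a Sprr2 promoter were between 49.6% (Sprr1a and Sprr2e) and 55.2% (Sprr1b and Sprr2b) identical, not far below. The transcripts of the family resemble each other as well. Whether a probe set of one Sprr2 gene also reads RNA of another was not tested, and each Sprr2 value is uncertain to that extent.

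The 2 Ovol2 BT arrays were less alike than the 2 controls, with a correlation over genes of 0.930 against 0.983. Replicate 2 of Ovol2 BT had 893 genes over 2-fold below the mean of the other 3 arrays and 78 over 2-fold above, against 33 and 53 on its replicate 1. Values of the 10 genes are therefore given array by array.

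Every one of the 10 genes had a higher mean in Ovol2 BT skin than in control skin, but none passed the test over all genes. Their log2 folds (Ovol2 BT minus control, from values on the log2(intensity + 16) scale) ranged from 0.28 for Sprr1b to 1.63 for Sprr2d, with a median of 0.84, against 0.03 over the 14953 genes tested. The median was 0.93 for the 8 Sprr2 genes and 0.35 for the 2 Sprr1 genes; the difference between the families was not tested. At a limma adjusted p under 0.05, 0 of 10 were called, beside 4 of all genes (0.0268%), of which 3 were higher (0.0201%), and the adjusted p of the 10 lay between 0.218 and 0.906. At an unadjusted limma p under 0.05, 8 of 10 were higher, beside 2.49% of all genes. Both Ovol2 BT arrays lay above both control arrays for 8 of 10, beside 20.1% of all genes, and positive folds were found for 10 of 10, beside 54.4%. In whole skin, more cells of a type and more RNA per cell cannot be told apart. With 2 arrays a group, an exact permutation test cannot go below p = 0.333.

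Sprr2d, which in mouse keratinocytes is a target of the oxidative stress factor Nrf2, had the largest difference of the 10. Its intensity was 2641 and 2281 on the Ovol2 BT arrays, against 742 and 824 on the control arrays. On the log2 scale that was 11.38 and 11.17 in Ovol2 BT skin and 9.57 and 9.71 in control skin, so the groups lay far apart and the arrays within each close together. The log2 fold was 1.63 (SE 0.19, 95% interval 1.17 to 2.09), or 3.10-fold, with an adjusted p of 0.218 in limma over all genes. By fold it ranked 16 among all 14953 genes tested.

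Sprr2g followed, although RefSeq lists it as a transcribed pseudogene. It measured 9.68 and 9.50 in Ovol2 BT skin and 8.33 and 8.61 in control skin, with no overlap. Its log2 fold was 1.12 (SE 0.20, 95% interval 0.62 to 1.63, adjusted p = 0.481 in limma). The signal of a pseudogene's probe set is RNA that matches its probes and says nothing of a protein.

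Sprr2b, Sprr2h and Sprr2f, which encode envelope precursors of the same kind, showed the same separation. Sprr2b measured 8.69 and 8.50 in Ovol2 BT skin and 7.81 and 7.38 in control skin, a 2.00-fold difference (on the log2 scale, SE 0.21, 95% interval 0.48 to 1.52, limma adjusted p = 0.619). Sprr2h, in mouse also a target of Nrf2, measured 8.54 and 8.87 in Ovol2 BT skin and 7.61 and 7.91 in control skin (log2 fold 0.95, SE 0.20, 95% interval 0.44 to 1.46, limma adjusted p = 0.655). Sprr2f, known in the mouse uterus as an oestrogen-responsive gene, measured 8.37 and 8.15 in Ovol2 BT skin and 7.41 and 7.58 in control skin (log2 fold 0.76, SE 0.17, 95% interval 0.35 to 1.18, limma adjusted p = 0.655). For all 3 genes the lowest Ovol2 BT array lay above the highest control array.

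Sprr2k, a neighbour of Sprr2i whose promoter carries the second AP-1 site, had the smallest difference among the Sprr2 genes. It measured 8.16 and 8.07 in Ovol2 BT skin and 7.77 and 7.63 in control skin, a log2 fold of 0.41 (SE 0.15, 95% interval 0.03 to 0.79, limma adjusted p = 0.906). The arrays of each group were close together and the groups did not overlap.

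For Sprr2e and Sprr2i the groups overlapped, because 1 Ovol2 BT array lay within the range of the controls. Sprr2e measured 9.99 on Ovol2 BT replicate 1 but only 7.94 on replicate 2, against 7.87 and 8.23 on the control arrays. Its log2 fold of 0.91 had an SE of 0.65 and a 95% interval from -0.72 to 2.55 (limma adjusted p = 0.906), and it was 1.94 without Ovol2 BT replicate 2 and -0.11 without replicate 1. Between the same 2 arrays, replicate 2 minus replicate 1 was -2.05 for Sprr2e and -0.21 for Sprr2d, which has the most similar promoter. Sprr2i had the opposite pattern, with 7.88 for Ovol2 BT replicate 1 and 8.88 for replicate 2, against 7.37 and 8.02 on control replicates 1 and 2. Its log2 fold was 0.68 (SE 0.39, 95% interval -0.29 to 1.66, limma adjusted p = 0.906), 1.18 without Ovol2 BT replicate 1, 0.19 without replicate 2 and 0.36 without control replicate 1.

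The 2 Sprr1 genes had small differences with narrow intervals. Sprr1a, also known for its induction in injured neurons, measured 13.51 and 13.23 in Ovol2 BT skin and 13.05 and 12.86 in control skin. Its log2 fold was 0.42 (SE 0.12, 95% interval 0.11 to 0.72, limma adjusted p = 0.898). Sprr1b, a marker of squamous differentiation, measured 13.35 and 13.32 in Ovol2 BT skin and 12.96 and 13.14 in control skin. Its log2 fold was 0.28 (SE 0.08, 95% interval 0.07 to 0.49, limma adjusted p = 0.906). Neither gene's groups overlapped, and both intervals end below 1.17, the lower end of that of Sprr2d. The signal of both was high on all 4 arrays, and a ceiling on bright probe sets was not tested.

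**Figure D2:**
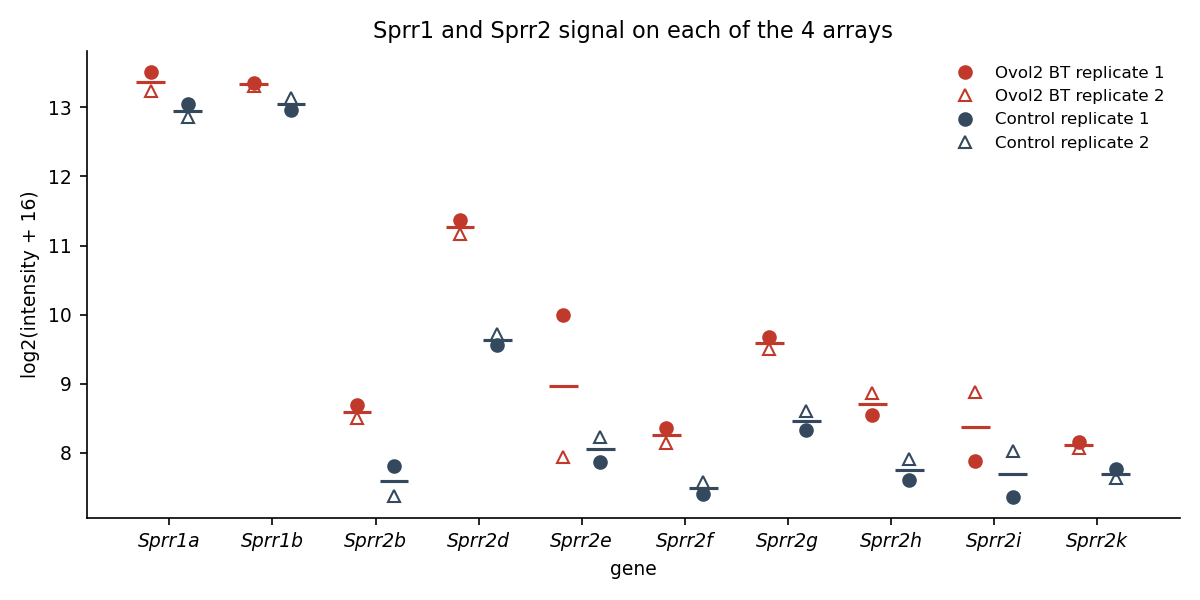
Signal of each of the 10 genes, as log2(intensity + 16), on the 2 Ovol2 BT arrays (red, left) and the 2 control arrays (dark, right); short bars are group means, and levels of different genes are not comparable. The groups are separate for 8 genes and overlap for Sprr2e and Sprr2i, where 1 Ovol2 BT array sits among the controls.

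Along chromosome 3 the genes run, in RefSeq's order, from Sprr2b through Sprr2k to Sprr1b and Sprr1a, with 3 other genes of the family in between or beside them that have a probe set of their own. The 4 highest folds, of Sprr2d, Sprr2g, Sprr2b and Sprr2h, all lay in the stretch before Sprr2i. That stretch also holds Sprr2e (0.91) and Sprr2f (0.76), and thus most of the Sprr2 genes. A link of fold with position was not tested. Sprr2j-ps, a transcribed pseudogene between Sprr2i and Sprr2k, had a log2 fold of 0.60 (SE 0.16, limma adjusted p = 0.853). Sprr3, an envelope precursor of moist epithelia between Sprr1b and Sprr1a, had 0.44 (SE 0.13, adjusted p = 0.906 in limma). Sprr4, beyond Sprr1a, had 0.18 (SE 0.18, adjusted p = 0.907 in limma), with an interval that includes 0.

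**Figure D3:**
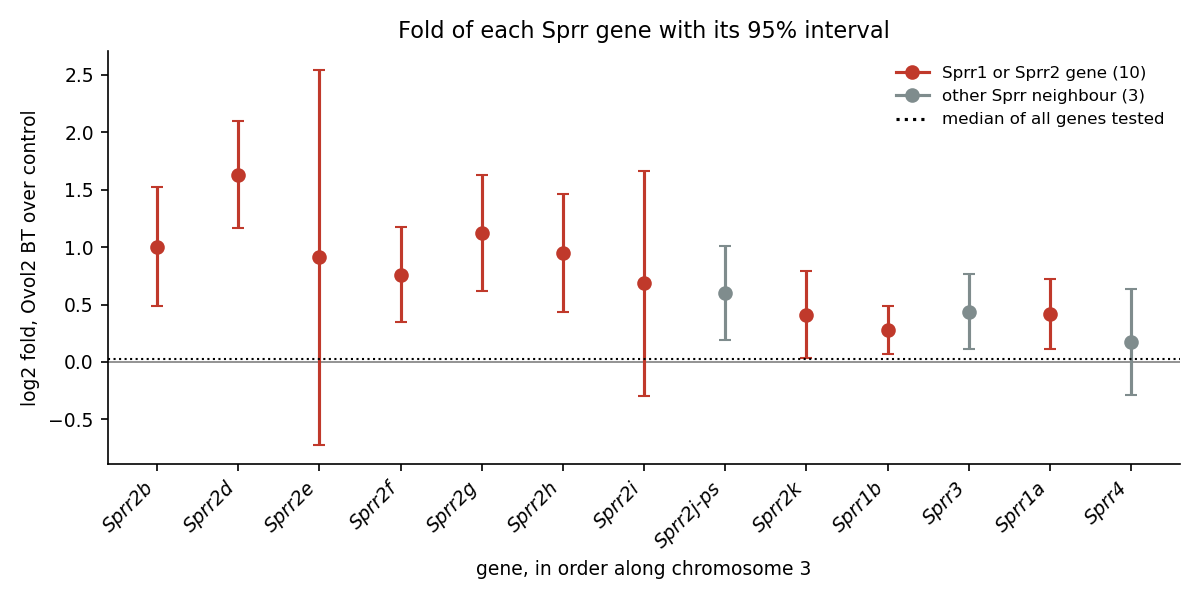
Log2 fold (Ovol2 BT over control) of 13 Sprr genes in their order on chromosome 3, with 95% intervals from limma; red marks the 10 Sprr1 and Sprr2 genes, grey 3 neighbours, and the dotted line the median of all genes tested. Folds run from 1.63 (Sprr2d) to 0.18 (Sprr4), and the intervals of Sprr2e, Sprr2i and Sprr4 include 0.

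**Figure D4:**
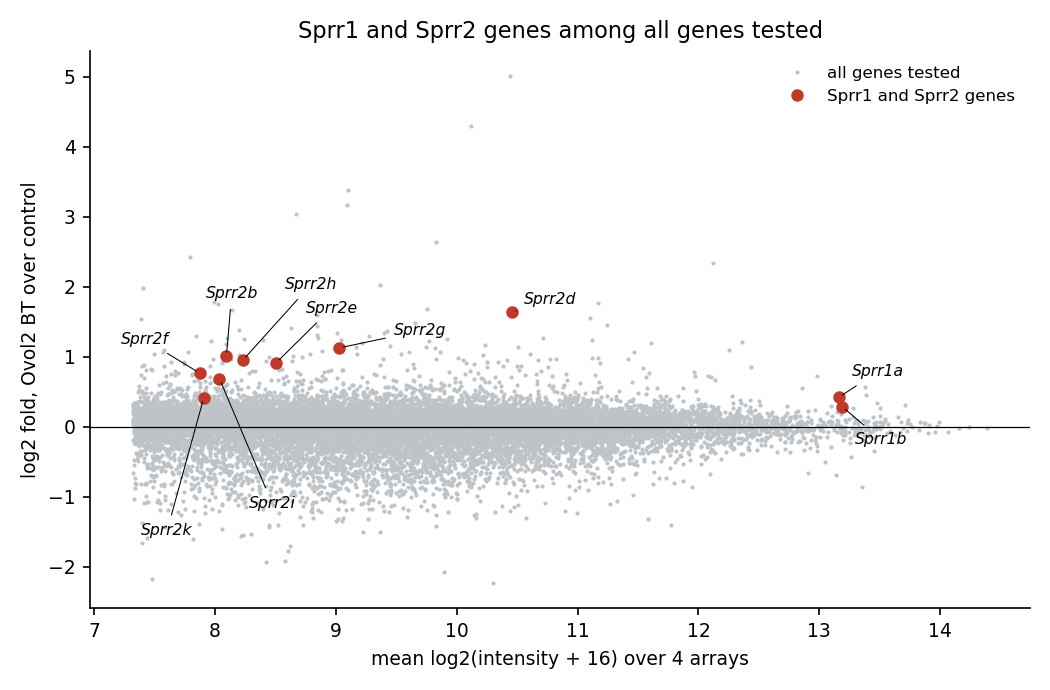
Log2 fold (Ovol2 BT over control) against the mean signal over 4 arrays, for all 14953 genes tested (grey) and the 10 Sprr1 and Sprr2 genes (red). All 10 lie above 0, from 0.28 for Sprr1b to 1.63 for Sprr2d.

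Relative to the control mean, the median over the 10 genes was 0.83 on Ovol2 BT replicate 1 and 0.78 on replicate 2. Within replicate number 1, where both arrays carried the Y-linked signal, all 10 genes were higher in Ovol2 BT skin, with a median difference of 0.91. Of all 14953 genes tested, 7189 were higher there, with a median of -0.01. Within replicate number 2, 9 of 10 were higher, all but Sprr2e, with a median of 0.71. Of all genes tested, 8414 were higher within replicate number 2, with a median of 0.06. The median difference between the controls themselves, replicate 2 minus replicate 1, was 0.17 over the 10 genes.

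Leaving out either Ovol2 BT array gave calls, in a fit that takes the spread of the remaining Ovol2 BT array from that of the controls. Without replicate 2, 4 of 10 were higher at a limma adjusted p under 0.05, namely Sprr2d, Sprr2e, Sprr2g and Sprr1a, beside 0.448% of all genes. Without replicate 1, 6 of 10 were higher, namely Sprr2b, Sprr2d, Sprr2f, Sprr2g, Sprr2h and Sprr2i, beside 3.61% of all genes. Both fits share the control arrays. Neither holds any spread between Ovol2 BT arrays. Sprr2e, named without replicate 2, measured 7.94 on that omitted array, against 7.87 and 8.23 on the control arrays. The log2 folds of Sprr2d and Sprr2g were 1.74 and 1.21 without replicate 2 and 1.53 and 1.03 without replicate 1.

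**Figure D5:**
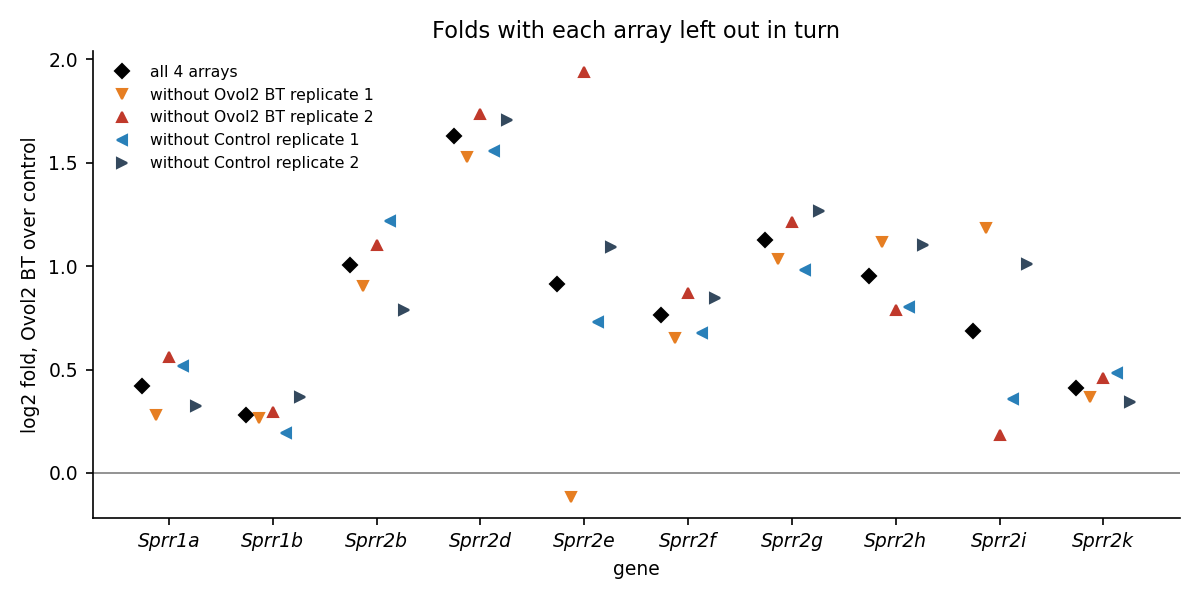
Log2 fold (Ovol2 BT over control) of each gene from all 4 arrays (black) and with 1 array left out (other symbols). Of the 10 genes, Sprr2e alone changes sign, at -0.11 without Ovol2 BT replicate 1 and 1.94 without replicate 2; the folds of Sprr2d stay between 1.53 and 1.74.

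The 5 genes whose profile over the 4 arrays was nearest to the mean of the 10 were Gm5414, Lce1l, Lpo, Porcn and Lce1e. The profile was the log2 value minus the gene's own mean, and the root mean square distances were 0.033, 0.043, 0.050, 0.050 and 0.059. The mean profile itself was 0.51 and 0.31 on the Ovol2 BT arrays and -0.48 and -0.34 on the control arrays. Lce1l and Lce1e, which encode late cornified envelope proteins, had log2 folds of 0.85 and 0.72. Gm5414, the nearest, had 0.86, the peroxidase gene Lpo 0.81 and Porcn, an acyltransferase for Wnt proteins, 0.81. As these 5 genes were picked by this profile, folds near the mean of the 10 follow from the choice. Lpo measured 7.02 and 7.13 on the control arrays, under the filter's log2 level of 7.32. It passed the filter through the Ovol2 BT arrays (7.91 and 7.86). Among the 10 genes, Sprr2f was nearest to their mean (0.032) and Sprr2e farthest (0.664).

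Of the other precursors of the envelope, the Lce genes were higher together with the Sprr genes. Of 17 Lce genes tested, 16 had positive folds, beside 54.4% of all genes. At an unadjusted limma p under 0.05, 14 were higher, beside 2.49% of all genes (1.74% were lower). The same shares stand beside the counts of the lists below. The median of the Lce genes was 0.72, with 0 called at a limma adjusted p under 0.05. Whether Lce probe sets also read RNA of other Lce genes was not tested, so these genes may not count separately. Lce1k (1.09, adjusted p = 0.126), Lce1b (1.21, adjusted p = 0.155), Lce1e (0.72) and Lce1h (0.56, both at an adjusted p = 0.246 in limma) had the smallest p. Of 11 other small proline-rich and late precursor genes, 0 were called, and 4 were higher at an unadjusted p. They were Crct1 (0.31), Prr9 (0.97), Sprr3 (0.44) and Flg2 (1.35), while loricrin (Lor) differed by 0.02 and involucrin (Ivl) by -0.46; the median was 0.06. Flg2 measured 10.43 and 10.47 on the Ovol2 BT arrays and 9.87 and 8.32 on the control arrays, and its fold was 2.13 without control replicate 1 and 0.58 without control replicate 2. Prr9 measured 8.82 and 8.12 on the Ovol2 BT arrays and 7.38 and 7.61 on the control arrays, and its fold was 0.62 without Ovol2 BT replicate 1.

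The enzymes and scaffold proteins that take up Sprr proteins had folds on both sides of 0. Of 9 transglutaminase and scaffold genes tested with limma, 0 were called, 2 had positive folds and the median log2 fold was -0.12. At an unadjusted p, the transglutaminase Tgm5 was higher (0.96, adjusted p = 0.853), while Tgm3 (-1.22, adjusted p = 0.906) and sciellin, Scel (-0.69, adjusted p = 0.906), were lower. Tgm1, the main membrane-bound transglutaminase of keratinocytes, differed by -0.06 (SE 0.10). Tgm3 measured 9.14 and 10.27 in Ovol2 BT skin and 11.24 and 10.61 in control skin, and its fold was -0.65 without Ovol2 BT replicate 1. The fold of Scel was -0.42 without control replicate 2.

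Transcripts of factors known to act on Sprr promoters had log2 folds between -0.79 and 0.25. Of 23 such genes, among them AP-1, POU, Ets and Irf factors, Klf4 and Nfe2l2 (Nrf2), 0 were called. Positive folds were found for 12 of the 23, beside 54.4% of all genes, and the median was 0.01. Only Elf5, an Ets factor, had an unadjusted limma p under 0.05, with -0.79 (SE 0.20, adjusted p = 0.789). Of 11 known Nrf2 targets tested, 0 were called; at an unadjusted limma p, 4 were higher and 1 lower. Hmox1, a haem-degrading enzyme, had 1.24 (adjusted p = 0.432), the quinone reductase Nqo1 0.94 (adjusted p = 0.884), the thioredoxin reductase Txnrd1 0.55 (adjusted p = 0.906) and the glutathione transferase Gsta4 -1.22 (adjusted p = 0.484). The list's median was 0.40. Nqo1 measured 8.54 and 9.24 on the Ovol2 BT arrays and 8.04 and 7.87 on the control arrays, and its fold was 0.59 without Ovol2 BT replicate 2. The fold of Txnrd1 was 0.36 without control replicate 2.

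Some stress keratinocyte genes and most periderm markers were higher in Ovol2 BT skin. Of 12 stress and wound genes tested, 9 had positive folds, with a median of 0.35. Of these, 1, Krt6b, rose (log2 fold 4.30, limma adjusted p = 0.0253), and 6 were higher at an unadjusted p, beside 2.49% of all genes. These 6 included Krt16 (3.38, adjusted p = 0.0945), Krt6a (1.76, adjusted p = 0.246) and the cytokine Il1a (2.42, adjusted p = 0.281). Il1a measured 6.92 and 6.24 on the control arrays, both under the filter's log2 level of 7.32. It passed the filter through the Ovol2 BT arrays (9.33 and 8.67), so its fold is given as a description only. The counts of 9 and 6 and the median of 0.35 include Il1a. The folds of Serpinb3a (-1.41, limma adjusted p = 0.906), Il1f6 (-0.06) and Hbegf (-0.05) were negative. The summed intensity of the stress list was 29728 and 25911 on the Ovol2 BT arrays, against 16101 and 13492 on the control arrays. Of 8 periderm markers, 1, Krt8, rose (2.34, limma adjusted p = 0.0253), and 7 were higher at an unadjusted p, with a median of 1.05. The summed periderm intensity was 27927 and 29045 on the Ovol2 BT arrays, against 14076 and 12345 on the control arrays, and none of the 8 was at 0. Krt6a is in both lists. The part of these genes in the Sprr difference was not tested.

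None of the lists for other layers and cell types had a median as high as that of the periderm markers. Basal keratinocyte markers had a median of -0.44 over 6 genes, with 3 lower at an unadjusted limma p, spinous markers -0.08 over 4 and granular markers -0.06 over 5. All granular genes tested (Lor, Flg2, Ivl, Tgm1 and Tgm3) are also in the precursor or transglutaminase lists above. Sbsn and Krtdap of the spinous list are in the precursor list too. The granular median, and in part the spinous, thus repeats values already counted. Myeloid markers had a median of 0.46 and fibroblast markers 0.03, each over 6 genes. Of the myeloid markers, 5 of 6 had positive folds and 1 was higher at an unadjusted limma p. Their summed intensity was 7562 and 8411 on the Ovol2 BT arrays, against 6473 and 5883 on the control arrays. Erythroid markers had a median of 0.66 over 3 genes and muscle markers 0.09 over 6. Among the erythroid genes, Tspo2 measured 6.90 and 7.30 on the control arrays, under the filter's log2 level of 7.32. It passed the filter through Ovol2 BT replicate 2 (10.64, against 7.13 on Ovol2 BT replicate 1). Summed erythroid intensity was 3958 and 14770 on the Ovol2 BT arrays, against 3371 and 6753 on the control arrays, so Ovol2 BT replicate 2 was highest. Summed muscle intensity was 20444 and 40610.5 on the Ovol2 BT arrays, against 35459 and 21583 on the control arrays, high on Ovol2 BT replicate 2 and control replicate 1. None of the genes in these 7 lists was called in limma at an adjusted p under 0.05. Their part in the values of the 10 Sprr genes, Sprr2e and Sprr2i among them, was not tested.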

How the data were processed

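Skin RNA of 2 Ovol2 BT and 2 control samples was hybridised to 1 array each. The deposited values are linear intensity values per probe set. The submitters' processing notes name Affymetrix Expression Console 1.1.1 and PLIER 2.0; normalisation between arrays and the genome build were not given in the sources. Of 35557 probe sets, 21789 have 1 gene symbol, 1621 several and 12147 no listed gene; symbols were updated through Entrez numbers to RefSeq (21698 matched). Per gene the probe set with the highest mean was kept.

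Values were taken to log2(intensity + 16), genes under the 25th percentile were left out, and 14953 of 19938 were tested in limma 3.58.1 (R 4.3.3) by lmFit, then eBayes with its variance trend, two-sided, with Benjamini-Hochberg adjustment over all genes tested. The offset shrinks folds of dim genes. The steps were tested on simulated data. The number of arrays limits the precision. The p-values rest on the spread between pools of mice within a group, and these pools also differ in Y-linked signal. They rest as well on the variance that eBayes takes from all genes, with 3.45 prior against 2 residual degrees of freedom. The members and lists were chosen with earlier results of these data known, so no test over the list alone was made. The text names all 10 members, Ovol2, the 5 genes of nearest profile and, of each of 6 related lists, up to 4 genes with the smallest unadjusted p under 0.05; Lor, Ivl, Tgm1, Serpinb3a, Il1f6, Hbegf and the values outside that rule were chosen after they were seen. Further lists hold markers of other cell types. Same-numbered arrays deviated against each other (correlation -0.17 over genes) and no label pairs them, so the fit has no replicate block. Alternatives were other normalisations, offsets, filters, probe set rules and variance models, a replicate block and each array left out; the folds of related-list genes without an array were added after seeing the data.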

Additional observations from a re-analysis of the deposited data

How the results depend on the processing

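The median fold of the 10 genes stayed between 0.70 and 0.93 over all 15 alternatives, and of 144 single folds, 1 changed sign, that of Sprr2e without Ovol2 BT replicate 1 (-0.11; 1.94 without replicate 2). The number of the 10 genes called was 0 under every alternative but the 2 that leave out an Ovol2 BT array, so it ranged from 0 to 6 with 1 array left out; Sprr1b and Sprr2k were called under none. At the 50th percentile filter only 4 of the 10 genes were tested. The count over all genes was 4. It was 10 with median centring, 0 with cyclic loess (673 at an unadjusted limma p under 0.05), 0 with a variance without trend (601 at an unadjusted p) and between 4 and 2453 with 1 array left out. The count of 2453 came from omitting Ovol2 BT replicate 1; omitting Ovol2 BT replicate 2 gave 107 and control replicate 1 gave 7. With the replicate number as a block it was 9, with 0 of the 10 genes; with the numbers crossed, a choice made after seeing the data, it was 5. The causes were not tested. With 2 arrays a group and pooled mice, the intervals of Sprr2e and Sprr2i include 0 and give no direction. The 95% intervals are for each gene alone, without adjustment over the genes tested. Those of the other genes leave out 0, yet the lowest limma adjusted p of the 10 was 0.218, so an interval without 0 is not a call.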

Other observations

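Some Sprr2 signal could not be assigned to a single gene. There were 3 probe sets whose annotation lists 2 or 4 genes, all of them Sprr2 genes, and these stayed out of the test. The probe set with 4 genes measured 12.25 and 12.36 on the Ovol2 BT arrays and 11.14 and 11.27 on the control arrays, a difference of 1.099 on the log2 scale. The 2 probe sets with 2 genes held the same values, 11.63 and 11.74 on the Ovol2 BT arrays and 10.49 and 10.60 on the control arrays, a difference of 1.14. In both cases the groups did not overlap, and the Ovol2 BT arrays differed from each other by less than from either control.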
